A study of Mus musculus with 4 samples.

Results

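Extracellular matrix and basement membrane genes were examined in mouse embryonic stem cell (ESC) lines without Dppa2, a gene of pluripotent cells that is also called ECAT15-2. The set holds 43 genes chosen by name: 20 of the basement membrane, 17 of the fibrillar and interstitial matrix, and 6 matrix proteases and their inhibitors. A probe on the array was matched to 41 of them through its accession. The other two, Lamc1 and Lox, were not analysed here. Of the 41, Col4a3 and Lama2 were not well above background on any array, and 39 entered the test among 21639 genes and transcripts. Of the 39, 37 were well above background on all 4 arrays, and Col4a5 and Lum missed that mark on 1 KO array each.

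The 2 KO lines were 15-2-/- and also 15-1CT/CT, that is, homozygous for a conditional targeted allele of ECAT15-1 (Dppa4). The 2 WT lines were 15-2+/+ and 15-1+/+. The 2 loci differ together between KO and WT, so their effects cannot be told apart. All 4 lines were derived from blastocysts of one type of intercross and were kept for 3 days on gelatin in medium with fetal calf serum and LIF. Lines KO 1 and WT 1 came from mother 1046, and lines KO 2 and WT 2 from mother 875. The mice were a mixture of 129Sv and C57/BL6 with Cre or FLPe transgenic stock of unknown background, so lines can differ at other loci too. Each line is 1 derivation with 1 array of Cy3-labelled total RNA. The p-values and SE rest on the spread between 2 lines a genotype, which limma draws toward the spread typical of all genes.

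The basement membrane is a thin sheet of type IV collagen and laminin networks, joined by nidogens and heparan sulphate proteoglycans, on which epithelia rest. In the early embryo it is laid down beneath the primitive endoderm and trophectoderm, and laminins in it guide the epiblast to form an epithelium. The interstitial matrix, made mostly by fibroblasts, consists of fibrillar collagens, fibrillin microfibrils and adhesive glycoproteins. Matrix metalloproteinases cut both, and the TIMP proteins inhibit them.

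Between 68.5% and 70.4% of probes were well above background on each array. Dppa2 read 7.05 and 7.12 log2 signal in the KO lines, against 12.09 and 12.03 in the WT lines. Dppa4 read 13.95 and 14.07 in the KO lines, against 13.37 and 13.54 in the WT lines. The defining ESC genes measured were well above background on all arrays (7 of 7), among them Pou5f1 at 13.18 and 13.09 in KO lines and 12.83 and 12.64 in WT lines. WT 1 stood apart in its Y-linked transcripts. The Y-linked translation factor gene Eif2s3y read 0.99 and 1.15 in KO 1 and KO 2, against 12.69 in WT 1 and 1.35 in WT 2, and it was well above background in WT 1 alone. For some genes and groups, differences are therefore also given without WT 1. In bulk RNA, fewer cells of a type and less RNA per cell cannot be told apart.

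Type IV collagen chains are encoded by pairs of genes that lie head to head. The windows from 250 bases before to 50 bases after the transcript starts of 2 such pairs are shown. Col4a1 and Col4a2 shared a pattern over the lines, while for Col4a5 and Col4a6 this depended on the Col4a6 probe that was read. Capitals mark GC boxes, which read GGGCGG on the strand shown. A box on the other strand reads CCGCCC. Sequences are from RefSeq, build GRCm38.p6, read along each gene's own strand. Col4a1 lies on the minus strand (chr8:11312777-11313076) and Col4a2 on the plus strand (chr8:11312555-11312854). Col4a5 lies on the plus strand (chrX:141475169-141475468) and Col4a6 on the minus strand (chrX:141474027-141474326).
Col4a1: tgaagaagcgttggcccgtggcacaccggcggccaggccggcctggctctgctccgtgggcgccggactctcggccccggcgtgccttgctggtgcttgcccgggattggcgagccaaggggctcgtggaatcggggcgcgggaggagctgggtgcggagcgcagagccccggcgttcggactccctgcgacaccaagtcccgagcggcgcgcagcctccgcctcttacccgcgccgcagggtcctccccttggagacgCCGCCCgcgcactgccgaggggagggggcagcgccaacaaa
Col4a2: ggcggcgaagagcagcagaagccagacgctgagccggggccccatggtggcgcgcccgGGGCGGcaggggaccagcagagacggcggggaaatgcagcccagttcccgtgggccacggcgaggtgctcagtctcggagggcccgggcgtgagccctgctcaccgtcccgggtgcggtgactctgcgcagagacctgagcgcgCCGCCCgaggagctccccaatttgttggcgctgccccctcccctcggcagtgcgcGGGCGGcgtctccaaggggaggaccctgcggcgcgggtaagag
Col4a5: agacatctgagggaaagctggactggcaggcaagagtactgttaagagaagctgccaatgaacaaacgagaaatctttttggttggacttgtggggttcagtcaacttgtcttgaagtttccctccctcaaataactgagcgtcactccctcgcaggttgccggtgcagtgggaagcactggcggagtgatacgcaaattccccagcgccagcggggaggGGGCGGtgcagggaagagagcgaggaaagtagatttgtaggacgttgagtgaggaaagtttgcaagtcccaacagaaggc
Col4a6: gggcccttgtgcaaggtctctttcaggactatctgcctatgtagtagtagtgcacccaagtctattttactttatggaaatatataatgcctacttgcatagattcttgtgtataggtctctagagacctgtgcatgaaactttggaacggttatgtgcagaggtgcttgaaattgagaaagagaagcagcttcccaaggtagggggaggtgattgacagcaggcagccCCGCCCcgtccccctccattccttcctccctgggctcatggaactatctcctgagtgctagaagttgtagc

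The Col4a1 and Col4a2 windows overlap by 78 bases, and their listed starts lie 21 bases apart. Those of Col4a5 and Col4a6 do not overlap, and the starts lie 1343 bases apart. GC boxes numbered 1 in the Col4a1, 3 in the Col4a2, 1 in the Col4a5 and 1 in the Col4a6 window. The Col4a1 box and the last Col4a2 box are the same site within the overlap, read from opposite strands. Of all 32851 windows in the table, 35.7% hold at least 1 GC box. CpG dinucleotides numbered 37 and 33 in the Col4a1 and Col4a2 windows and 11 and 3 in the Col4a5 and Col4a6 windows, against a median of 7 over all windows. None of the 4 windows holds the letters TATAAA, in either direction, which 13.6% of all windows hold. The letters CCAAT, searched on both strands like the other motifs, are in the Col4a1, Col4a2 and Col4a5 windows and in 37.4% of all windows. These counts describe the letters of the windows only. The table has a window for 27 of the 43 genes, and among those it lacks are Lama1 and Mmp2.

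Against WT, the KO lines had less of the gelatinase gene Mmp2 and the fibrillin gene Fbn1 and more of the laminin gene Lama1, and these were the 3 matrix genes that passed the test over all genes. Mmp2 and Fbn1 fell by 3.44 and 2.82 on the log2 scale, and Lama1 rose by 1.68. The other 36 tested members did not pass. At a limma adjusted p under 0.05, 2 of 39 members were lower, where 1.67% of all genes tested were, and 1 of 39 was higher, where 0.176% were. At an unadjusted p under 0.05, limma put 12 of 39 members lower, a share of 30.8% against 12.4% of all genes, and 1 higher, against 11.1%. A difference of at least 2-fold in both pairs of lines was seen downward in 10 of 39 members (25.6%, against 6.94% of all genes) and upward in 1 (2.56%, against 1.56%). Both KO lines lay below both WT lines for 19 of 39 members (48.7%, against 24.5% of all genes) and above them for 5 (12.8%, against 37.7%). The members were chosen with earlier results of these data known, so these shares describe the list.

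**Figure D1:**
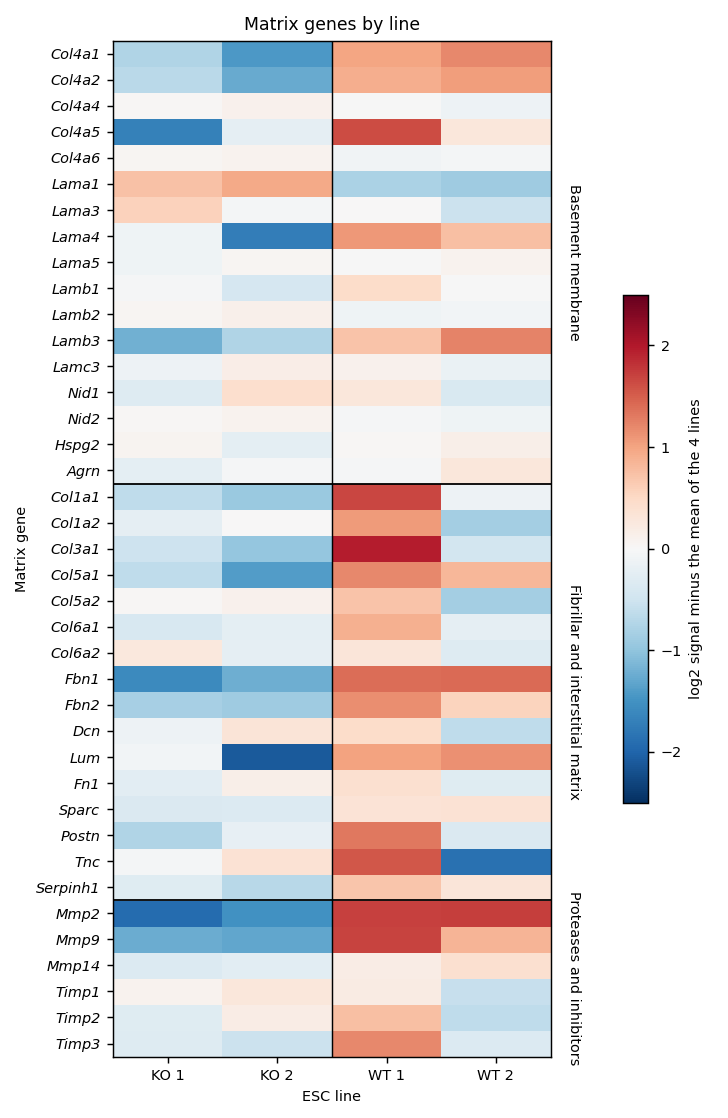
Log2 signal of the 39 tested matrix genes in each line, minus the mean of that gene over the 4 lines; rows are genes by group, columns are lines, and the colour scale runs from -2.5 (blue) to 2.5 (red). Mmp2 and Fbn1 are low in both KO lines and Lama1 is high in both. For many interstitial genes WT 1 is the highest line, and for some of these WT 2 is the lowest.

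Of the 17 tested basement membrane genes, 1 rose (5.88%, against 0.176% of all genes), 0 fell (against 1.67%) and 16 did not pass. Col4a1 had the largest absolute difference among them. Col4a1 and Col4a2 encode the chains of the type IV collagen found in nearly all basement membranes. Col4a1 read 10.65 and 9.97 in the KO lines, against 12.39 and 12.60 in the WT lines. The log2 difference was -2.18 (SE 0.29, n = 2 per genotype), a 4.54-fold lower level with a limma adjusted p of 0.0687, above the threshold. Col4a2 read 9.92 and 9.34 in the KO lines, against 11.51 and 11.64 in the WT lines, with a log2 difference of -1.95 (SE 0.25, limma adjusted p = 0.0677). For both genes the highest KO line lay at least 1.59 below the lowest WT line, and KO 2 was the lowest of the 4 lines. A second Col4a1 probe read 9.40 and 8.96 in the KO lines, against 10.85 and 11.04 in the WT lines. A second Col4a2 probe read 7.96 and 7.41 in the KO lines, against 9.71 and 9.66 in the WT lines. All 4 probes of the 2 genes thus put both KO lines below both WT lines. Both genes passed the test under normexp background correction (limma adjusted p = 0.0383 for Col4a1 and 0.0420 for Col4a2), with an intensity trend in the prior (0.0466 and 0.0473), and without KO 1 (0.0477 for both). Over 14 alternatives the adjusted p of each ranged from 0.0383 for Col4a1 and 0.0420 for Col4a2 up to 0.299.

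The rarer chains did not share one pattern. Col4a4 encodes a chain of the kidney glomerular type and read 10.51 and 10.58 in the KO lines and 10.46 and 10.34 in the WT lines, a log2 difference of 0.15 (SE 0.13). Its partner Col4a3 stayed below background in all lines. Col4a5 read 2.75 and 4.22 in the KO lines, the first not well above background, against 6.08 and 4.74 in the WT lines. With KO 1 set to the lowest signal called well above background there, Col4a5 was at least 2.84 lower on the log2 scale in the mother 1046 pair, while the mother 875 pair differed by -0.52. Limma gave an adjusted p of 0.233. Col4a5 and Col4a6 are X-linked, as is the inhibitor gene Timp1. WT 1, the line with the Y-linked transcripts named above, was the highest in Col4a5 but not in Timp1, which was highest in KO 2 at 14.28. Whether the sex chromosomes bear on these genes was not tested.

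The 3 Col4a6 probes, all assigned to one accession, went different ways. The brightest, which stood for the gene, read 7.38 and 7.42 in the KO lines and 7.24 and 7.27 in the WT lines. Another read 5.36 and 3.78 in the KO lines and 5.77 and 4.37 in the WT lines, so that KO and WT overlapped. The remaining probe read 1.12 and 1.27 in the KO lines, not well above background, against 7.97 and 6.91 in the WT lines. Taken by itself, a reading added after the probes were seen to differ, this last probe was at least 17.7-fold lower in the KO lines. The bound sets the WT mean against the lowest signal called well above background on the KO arrays. No p is given, because the probe was singled out for its values and entered the fit through the WT arrays alone. Averaging the probes turned the Col4a6 difference to -2.20, against 0.15 for the brightest probe. The probe sequences are not used here, so the part of the transcript each reads cannot be told.

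**Figure D2:**
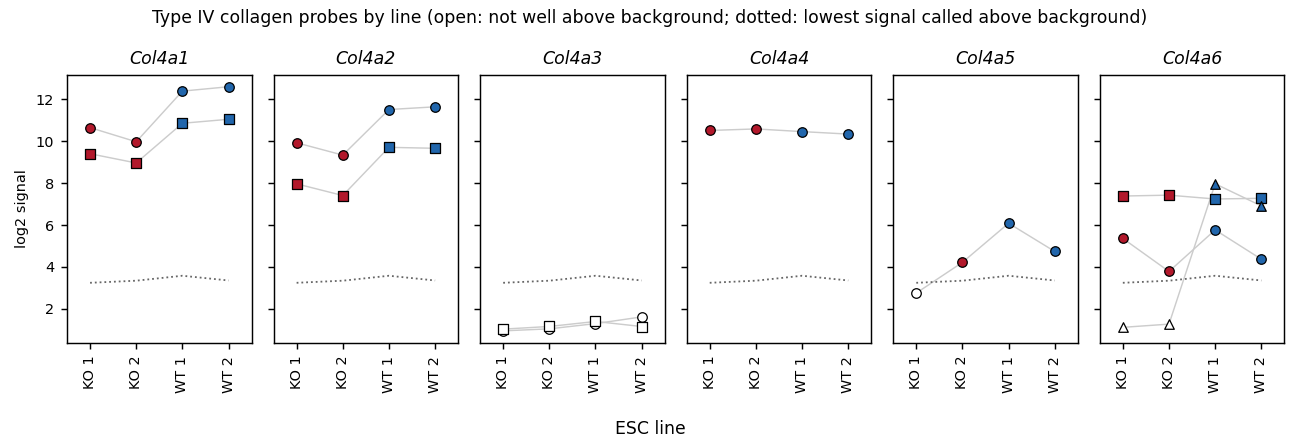
Log2 signal of every probe of the 6 type IV collagen genes by line, with KO lines in red and WT lines in blue; each symbol shape is 1 probe, open symbols are not well above background, and the dotted line is the lowest signal called well above background on that array. Both probes of Col4a1 and of Col4a2 are lower in the KO lines, and 1 of 3 Col4a6 probes drops to 1.12 and 1.27 there.

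Laminins are trimers of an alpha, a beta and a gamma chain, and Lama1 was the one laminin gene of those tested that passed. Lama1 encodes the alpha chain of the laminin of the early embryo. It read 10.05 and 10.28 in the KO lines, against 8.53 and 8.43 in the WT lines, a 3.21-fold rise (log2 difference 1.68, SE 0.15, n = 2 per genotype, limma adjusted p = 0.0398). Both KO lines were above both WT lines, and the rise was 1.52 and 1.85 in the pairs of mothers 1046 and 875. Its call was lost with the mother as a block (limma adjusted p = 0.105), without any 1 of the 4 lines (0.0503 without KO 1, 0.0990 without KO 2, 0.226 without WT 1 and 0.245 without WT 2), and with other filters on dim probes (0.0592 with none). Lama5, whose alpha chain is made by ESCs and most adult epithelia, read 13.69 and 13.85 in the KO lines and 13.79 and 13.88 in the WT lines. The log2 difference of Lama5 was -0.07 (SE 0.14), and its sign turned under median centring (0.10) and normexp (0.03). Lamb1, the beta chain that pairs with both, read 12.72 and 12.33 in the KO lines and 13.23 and 12.75 in the WT lines.

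Lamb3 encodes a beta chain of the laminin that anchors epithelia such as the skin. It read 6.20 and 6.66 in the KO lines, against 8.11 and 8.65 in the WT lines, and the groups did not overlap (log2 difference -1.95, SE 0.29, limma adjusted p = 0.0800). It passed under normexp background correction (limma adjusted p = 0.0489). Lama3, the alpha chain of the same laminin, read 8.61 and 7.98 in the KO lines and 8.04 and 7.50 in the WT lines, so that KO and WT overlapped. Lama4, an alpha chain of blood vessel and muscle basement membranes, read 6.12 and 4.51 in the KO lines, against 7.32 and 6.98 in the WT lines. The KO lines lay 1.62 apart, and the Lama4 difference of -1.84 (SE 0.62) had a limma adjusted p of 0.205. Lamb2, a beta chain of nerve, muscle and kidney basement membranes, read 10.46 and 10.53 in the KO lines and 10.30 and 10.33 in the WT lines. Lamc3, a gamma chain, read 3.69 and 3.99 in the KO lines and 3.93 and 3.654 in the WT lines, which overlapped.

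None of the linker genes passed the test. Nid2, a nidogen that ties laminin to type IV collagen, read 12.86 and 12.92 in the KO lines and 12.79 and 12.73 in the WT lines. Nid1, the other nidogen gene, read 12.31 and 13.05 in the KO lines and 12.90 and 12.24 in the WT lines, so that the genotypes overlapped. Hspg2, which encodes the heparan sulphate proteoglycan perlecan, read 14.86 and 14.55 in the KO lines and 14.82 and 14.93 in the WT lines. Agrn, for the proteoglycan agrin, read 15.65 and 15.86 in the KO lines and 15.86 and 16.18 in the WT lines. The limma adjusted p of these linkers and proteoglycans ran from 0.420 (Agrn) to 0.873 (Nid1). Over the 17 tested basement membrane genes, 9 differences were negative (52.9%, against 40.8% of all genes) and 8 positive. Their median was -0.07, against 0.10 over all genes tested. That median moved with the scaling: it was 0.10 under median centring and -0.22 under quantile scaling.

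**Figure D3:**
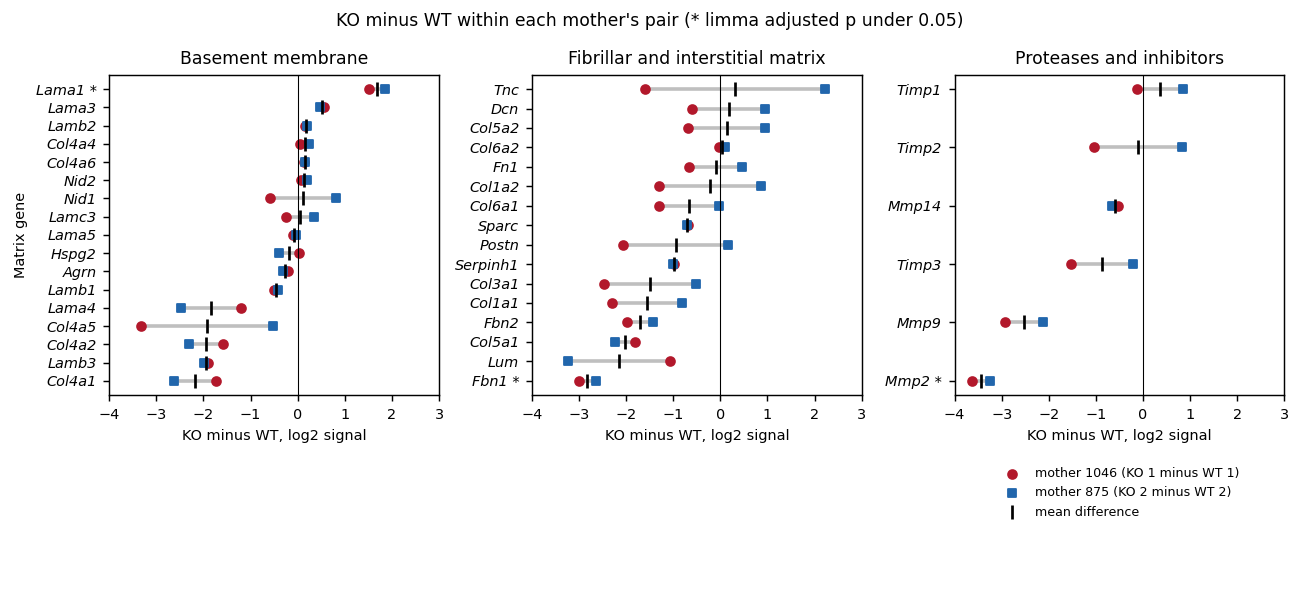
KO minus WT difference in log2 signal for each tested matrix gene, with the pair of lines from mother 1046 as red circles, that from mother 875 as blue squares and their mean as a black tick; an asterisk marks a limma adjusted p under 0.05. Both pairs of Mmp2 and Fbn1 lie below -2.5 and both of Lama1 above 1.5, whereas the 2 pairs of Tnc lie at -1.60 and 2.23; 1 pair each of Col4a5 and Lum uses a KO value not well above background.

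Of the 16 tested interstitial genes, 1 fell (6.25%, against 1.67% of all genes), 0 rose (against 0.176%) and 15 did not pass. The gene that fell was Fbn1, which encodes the main component of elastic microfibrils. It read 5.24 and 5.62 in the KO lines, against 8.24 and 8.26 in the WT lines, a 7.07-fold change (log2 difference -2.82, SE 0.18, n = 2 per genotype, limma adjusted p = 0.0253). The gap between the nearest KO and WT lines was 2.63, and a second Fbn1 probe, not well above background in the KO lines, was at least 6.12-fold lower. That probe entered the fit through the WT arrays alone, so its bound is not separate support for the Fbn1 call. The call was lost with the mother as a block (limma adjusted p = 0.0837) and without KO 2 (0.0653), WT 1 (0.183) or WT 2 (0.197). With genes dim on any array left out, Fbn1 narrowly missed the threshold (limma adjusted p = 0.0503). Fbn2, the fibrillin gene of the embryo, read 4.80 and 4.74 in the KO lines, against 6.79 and 6.17 in the WT lines. Its log2 difference of -1.71 (SE 0.26) did not pass (limma adjusted p = 0.0825).

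Of the fibrillar collagens, Col5a1 differed most. This chain of the collagen that starts fibril assembly read 9.53 and 8.76 in the KO lines, against 11.35 and 10.99 in the WT lines (log2 difference -2.03, SE 0.33, limma adjusted p = 0.0925). The 2 genotypes did not overlap, and the gap between the nearest lines was 1.46. It passed under normexp background correction (limma adjusted p = 0.0483). Serpinh1, the chaperone that folds collagen in the endoplasmic reticulum, read 13.93 and 13.52 in the KO lines and 14.92 and 14.52 in the WT lines (log2 difference -0.99, SE 0.24, limma adjusted p = 0.143). Sparc, a secreted protein that binds collagen, read 13.67 and 13.68 in the KO lines and 14.37 and 14.40 in the WT lines. For Sparc the difference was -0.70 (SE 0.12), with lines of a genotype within 0.03 of each other on this probe. The limma adjusted p was 0.0946, or 0.0414 with an intensity trend in the prior. A second Sparc probe read 13.29 and 13.40 in the KO lines and 13.68 and 13.97 in the WT lines. Its difference was smaller, at -0.48 (SE 0.17). Lum, a small proteoglycan that binds collagen fibrils, read 4.07 and 2.03 in the KO lines, the second not well above background, and 5.15 and 5.28 in the WT lines (log2 difference -2.16, SE 0.76, limma adjusted p = 0.214). Leaving out 1 line at a time moved the Lum difference between -3.18 and -1.14. The limma adjusted p was 0.0447 without KO 1, where the KO value left is a background reading, and reached 0.515 without WT 2.

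For the other interstitial genes, WT 1 was the highest of the 4 lines. Among them, WT 2 was the lowest line for Tnc, Col1a2, Col5a2, Dcn, Fn1 and Col6a2. Col3a1, a collagen of soft connective tissue, read 7.96 and 7.51 in the KO lines, against 10.44 in WT 1 and 8.02 in WT 2. Col1a1, a chain of the main collagen of bone and skin, read 10.16 and 9.87 in the KO lines, against 12.47 in WT 1 and 10.68 in WT 2. In both genes WT 2 lay closer to the KO lines than to WT 1. The log2 difference of Col3a1 was -1.50 (SE 0.91) with all lines and -0.29 without WT 1, and that of Col1a1 was -1.56 (SE 0.68) and -0.66. Tnc, the adhesion-modulating glycoprotein tenascin C, read 7.23 and 7.65 in the KO lines, against 8.83 in WT 1 and 5.42 in WT 2. The KO lines thus lay between the WT lines, which were 3.41 apart on the log2 scale. The other chain of the same collagen as Col1a1, Col1a2, read 10.19 and 10.43 in the KO lines, against 11.48 in WT 1 and 9.56 in WT 2. Its 2 pairs, like those of Tnc, had opposite signs, at -1.29 and 0.87. Postn, for the cell adhesion protein periostin, read 4.74 and 5.28 in the KO lines, against 6.80 in WT 1 and 5.12 in WT 2. Col5a2, the partner chain of Col5a1, read 6.93 and 6.995 in the KO lines, against 7.61 in WT 1 and 6.05 in WT 2. Dcn, a small proteoglycan on collagen fibrils, read 8.03 and 8.48 in the KO lines, against 8.62 in WT 1 and 7.52 in WT 2. Col6a1, a chain of a beaded-filament collagen, read 5.87 and 6.03 in the KO lines, against 7.17 in WT 1 and 6.06 in WT 2. Fn1, the fibronectin gene, read 12.46 and 12.87 in the KO lines and 13.12 and 12.42 in the WT lines, and its other 2 probes had differences of -0.13 and 0.02. Col6a2, the partner of Col6a1, read 5.65 and 5.16 in the KO lines and 5.69 and 5.07 in the WT lines.

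In all, 8 of 16 interstitial genes were at least 2-fold lower in WT 2 than in WT 1, where 3.13% of all genes were, and 0 were at least 2-fold higher, where 1.86% were. Among basement membrane genes it was 1 of 17, Col4a5. As a median, WT 2 differed from WT 1 by -0.91 in interstitial genes and by -0.07 in basement membrane genes, against 0.01 over all genes. At least 2-fold differences between the KO lines were fewer: 2 of 39 members (Lama4 and Lum) were lower in KO 2 than in KO 1, where 6.09% of all genes were, and 1 (Col4a5) was higher, where 3.23% were. KO 2 minus KO 1 had a median of 0.04 for interstitial genes and 0.07 for basement membrane genes, against 0.03 over all genes. The median KO minus WT difference of the 16 interstitial genes was -0.83. The pair of mother 1046 gave -1.29, the pair of mother 875 gave -0.27, leaving out WT 1 gave -0.20, and leaving out WT 2 gave -1.30. Of the 16 differences, 12 were negative.

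Fibroblast markers did not share one pattern over the lines. WT 1 was the highest line for some of them, but not for Thy1, Pdpn, Fbln2 and Mfap5. Of 14 listed markers that are not members, 11 were well above background on all 4 arrays, while Fap and Dpt were above it on none. Their summed signal, on the linear scale, was 54490 in KO 1 and 49370 in KO 2, against 142400 in WT 1 and 105300 in WT 2. Tagln, a smooth muscle actin-binding protein gene, carried most of the WT sums. Without it the sum of the other 10 was 37240 and 44910 in the KO lines, against 55240 in WT 1 and 30870 in WT 2, so that WT 2 was the lowest line. Of the 11 differences, 6 were negative and 5 positive, with Thy1, Prrx1, S100a4, Fbln2 and Mfap5 higher in KO on average. The median of WT 2 minus WT 1 was -0.78 over the 11. The summed signal of 11 trophoblast markers was 86780 and 63170 in the KO lines, against 297600 and 393100 in the WT lines, and 10 of the 12 with a probe were above background on all arrays. The keratin genes Krt8 and Krt18 carried most of that sum in every line. Among the 11 trophoblast markers, 9 differences were negative and 2 positive, with a median of -1.79. Ascl2 and Tfap2c were higher in both KO lines than in both WT lines. For 13 primitive endoderm markers the sum was 3442 and 2138 in the KO lines, against 4501 and 3662 in the WT lines, with Ttr above background nowhere. These 13 were split, with 7 negative and 6 positive differences and a median of -0.12. Gata4, Gata6, Sox7, Sox17 and Pdgfra were higher in KO in both pairs, by log2 differences of 0.53 (Gata4) to 1.64 (Pdgfra), while Fst, Amn, Dab2 and Foxa2, which carried much of the sum, had negative differences. For 3 endothelial markers the sum was 613 and 384 in the KO lines and 834 and 548 in the WT lines, with Emcn and Tie1 above background nowhere. Of these 3 differences, 2 were negative and 1 positive, that of Esam, which was higher in both KO lines than in both WT lines. The ESC markers had a summed signal of 133400 and 211600 in the KO lines, against 71180 and 82670 in the WT lines. Zfp42 was the largest part of that sum in KO 2 and WT 2. It read 13.97 and 16.60 in the KO lines and 13.39 and 15.10 in the WT lines, which overlapped. All 7 ESC marker differences were positive, from 0.13 (Tdgf1) to 1.92 (Klf4). The part of these cell types in the matrix differences was not tested.

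**Figure D4:**
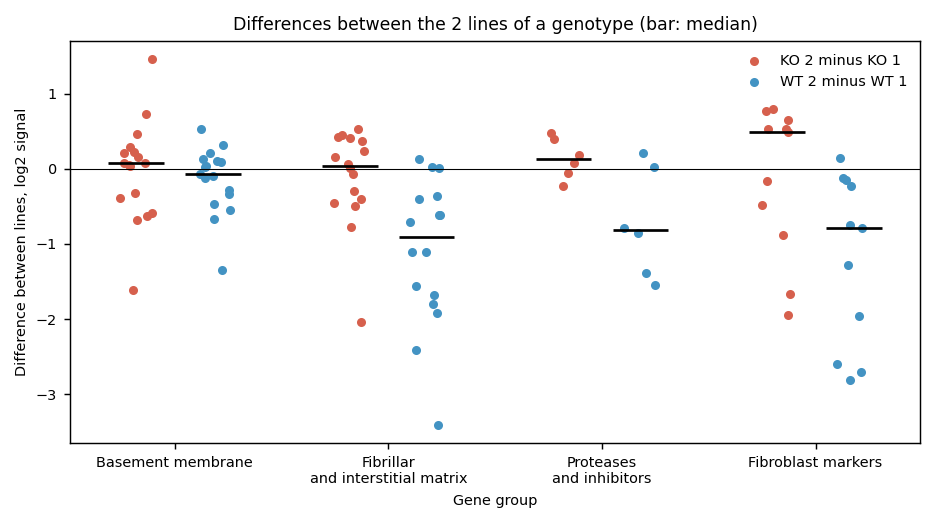
Difference in log2 signal between the 2 lines of a genotype for each tested gene (KO 2 minus KO 1 in red, WT 2 minus WT 1 in blue) in the 3 matrix groups and in the fibroblast markers; black bars are medians. WT 2 lies below WT 1 at a median of -0.91 in the interstitial matrix genes, while the KO lines differ by 0.04.

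Among the proteases and inhibitors, 1 of 6 fell (16.7%, against 1.67% of all genes), 0 rose (against 0.176%) and 5 did not pass. Their median difference was -0.73, or -0.40 without WT 1 and -1.23 without WT 2. Mmp2, whose enzyme cuts denatured collagen and type IV collagen, read 7.09 and 7.50 in the KO lines, against 10.72 and 10.74 in the WT lines. It fell 10.8-fold (log2 difference -3.44, SE 0.19, n = 2 per genotype, limma adjusted p = 0.0221), with a gap of 3.22 between the nearest KO and WT lines. The call was lost with the mother as a block (limma adjusted p = 0.0829) and without KO 2 (0.0653), WT 1 (0.173) or WT 2 (0.171). With genes dim on any array left out, Mmp2 narrowly missed the threshold (limma adjusted p = 0.0503). Mmp9, the other gelatinase gene, read 5.42 and 5.37 in the KO lines, against 8.35 and 7.50 in the WT lines, and both genotypes lay apart (log2 difference -2.53, SE 0.33, limma adjusted p = 0.0689). A second Mmp9 probe had the same difference, -2.53, and the gene passed under normexp background correction (limma adjusted p = 0.0457). Mmp14, a membrane-bound metalloproteinase that activates the Mmp2 proenzyme, read 12.89 and 12.97 in the KO lines and 13.42 and 13.64 in the WT lines (log2 difference -0.60, SE 0.15, limma adjusted p = 0.144).

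None of the 3 inhibitor genes separated the genotypes. Timp1 read 14.10 and 14.28 in the KO lines and 14.22 and 13.43 in the WT lines. Timp2 read 11.43 and 11.91 in the KO lines and 12.48 and 11.09 in the WT lines, its KO lines lying between its WT lines. Timp3, an inhibitor that stays bound to the matrix, read 10.97 and 10.75 in the KO lines and 12.50 and 10.95 in the WT lines (log2 difference -0.87, SE 0.59, limma adjusted p = 0.413). Without WT 1 the Timp3 difference was -0.0931, and without WT 2 it was -1.64. WT 2 was the lower WT line for all 3, with differences to WT 1 of -0.79, -1.39 and -1.55.

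**Figure D5:**
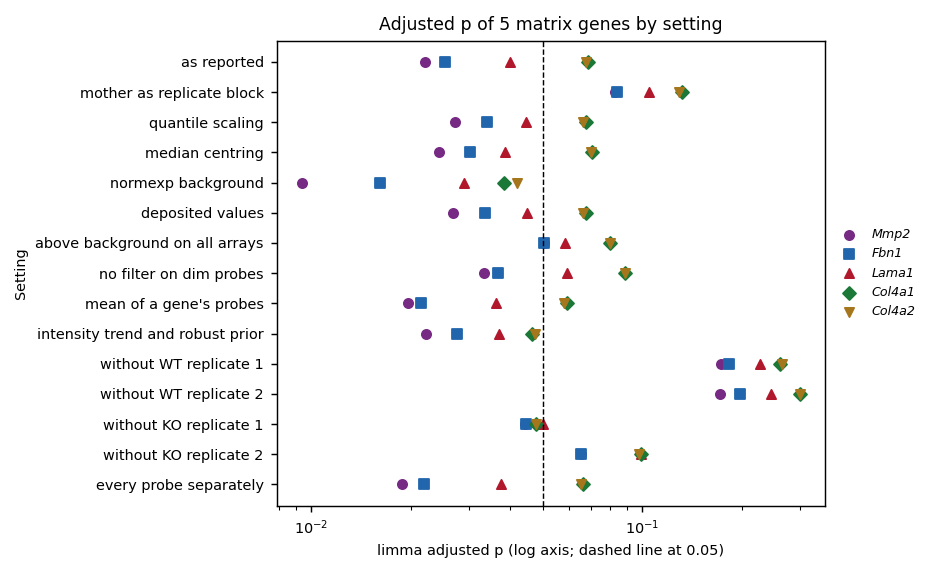
Limma adjusted p (log axis) of Mmp2, Fbn1, Lama1, Col4a1 and Col4a2 as reported and under 14 alternative settings, with the threshold of 0.05 dashed. As reported Mmp2, Fbn1 and Lama1 lie left of the line at 0.0221, 0.0253 and 0.0398, and with the mother as a replicate block all 5 lie right of it.

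Other genes that act on the same matrix were read from lists of receptors, of collagen processing enzymes and of further proteases. Of 19 tested receptor genes 1 fell (5.26%, against 1.67% of all genes), 0 rose (against 0.176%) and 18 did not pass. Negative differences numbered 15 (78.9%, against 40.8% of all genes), and the median was -0.59, against 0.10 over all genes. In limma an unadjusted p under 0.05 was reached by 5 downward (26.3%, against 12.4% of all genes) and 0 upward (against 11.1%). The receptor gene that fell was Itgb3, an integrin beta chain that binds fibronectin, fibrillin and other matrix proteins, at 7.88 and 7.74 in the KO lines, against 9.53 and 9.26 in the WT lines (log2 difference -1.58, SE 0.16, limma adjusted p = 0.0497). The Itgb3 call was lost with the mother as a block (limma adjusted p = 0.0974), without genes dim on any array (0.0674), with no filter on dim probes (0.0699), under quantile scaling (0.0580) or median centring (0.0515), with the deposited values (0.0578) and without any 1 line (0.0670 to 0.233). Its alpha partner Itgav read 9.11 and 8.97 in the KO lines and 9.96 and 9.77 in the WT lines (limma adjusted p = 0.0987). Itgb1, the beta chain shared by most laminin and collagen receptors, read 11.80 and 11.67 in the KO lines, against 12.58 and 13.20 in the WT lines (limma adjusted p = 0.134).

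Of 22 tested collagen processing genes none passed in limma, the median difference was -0.31, and an unadjusted p under 0.05 was reached by 9 downward (40.9%, against 12.4% of all genes) and 3 upward (13.6%, against 11.1%). Pxdn, the peroxidase that cross-links type IV collagen, read 9.70 and 9.10 in the KO lines, against 11.41 and 11.29 in the WT lines. Its log2 difference of -1.95 (SE 0.26, limma adjusted p = 0.0687) stands beside -2.18 and -1.95 for Col4a1 and Col4a2. Pcolce, an enhancer of collagen propeptide removal, went the other way and read 15.51 and 15.62 in the KO lines, against 14.55 and 14.66 in the WT lines (limma adjusted p = 0.0723). Fkbp10, a prolyl isomerase that acts on collagen, read 12.83 and 12.93 in the KO lines and 13.78 and 13.73 in the WT lines (limma adjusted p = 0.0783). Of 20 further tested protease and inhibitor genes none passed in limma, the median difference was -0.54, and an unadjusted p under 0.05 was reached by 7 downward (35.0%, against 12.4% of all genes) and 2 of 20 upward (against 11.1% of all genes). Adamts5, an enzyme that cuts proteoglycans, read 4.24 and 5.10 in the KO lines, against 8.18 and 7.33 in the WT lines (log2 difference -3.09, SE 0.46, limma adjusted p = 0.0814). Mmp23 and Mmp15 had log2 differences of -1.50 (limma adjusted p = 0.0520) and -1.34 (0.0776).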

How the data were processed

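RNA of 4 ESC lines was measured on 1-colour Agilent arrays. Per the file headers, spot intensity was extracted with Agilent Feature Extraction 10.7.3.1, and the processed intensity is background-subtracted and detrended but not scaled between arrays. The deposited log2 values correlated at 0.9999 or more with log2 processed intensity, share their quantiles and have a median of 6.55; no header or label states their scale, and the labels name GeneSpring GX11. The 4 arrays share 1 slide and 1 scan day. The precision is limited by the number of arrays.

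Values here are log2 processed intensity minus each array's 75th percentile over gene spots, re-centred on the mean percentile. Control and outlier spots were left out, and spots of a probe were averaged. Of 40941 probes, 26574 were named through their accession in a RefSeq table of GRCm38.p6. A probe was kept where well above background on both arrays of a genotype, and the brightest kept probe stood for its gene, the mean of a gene's probes being an alternative. Levels of different probes are not comparable.

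Groups were taken from titles and compared with limma 3.58.1 in R 4.3.3, with genotype as the term, Benjamini-Hochberg adjustment over 21639 genes and a threshold of 0.05. A mother block was fitted as an alternative, since labels tie equal numbers to one mother. Across genes, the KO 2 minus KO 1 and WT 2 minus WT 1 differences had a correlation of 0.189. Normexp used the median spot intensity, and the planned mean intensity was not used here. The fit was tested on simulated data. Values by line are given for every member tested, and full statistics for members with an unadjusted p under 0.05 or among the 3 largest differences of a group. For other lists, the 3 smallest p are named. Members and lists were chosen with earlier results of these data known.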

Additional observations from a re-analysis of the deposited data

Results flagged for a closer look

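For Tnc the KO minus WT difference had opposite signs in the 2 pairs, with -1.60 in the pair of mother 1046 and 2.23 in the pair of mother 875. It was flagged because both were at least 2-fold and ran opposite ways, and the difference between the pairs was not tested. The KO lines read 7.23 and 7.65, against 8.83 and 5.42 in the WT lines.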

How the results depend on the processing

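There were 544 values of single members under 14 alternatives. Of these, 490 kept their direction and their side of the threshold, 11 newly passed it, 17 lost their call and 26 turned in sign. With the mother block, the intensity trend and the filters on dim probes, differences of members were fixed, as for Lama1 at 1.68. No sign turns there by construction. The 36 members not called as reported also count as kept while they stay uncalled with the same sign. The 490 is thus not a rate of robustness. Mmp2 and Fbn1 stayed called without KO 1, and Lama1 was lost without any 1 line.

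With the mother as a replicate block, limma called 0 matrix genes and 0 genes overall whichever the direction (an unadjusted p under 0.05 was reached by 2736 downward and 2275 upward), with log2 differences of 1.68 for Lama1, -2.82 for Fbn1 and -3.44 for Mmp2 and adjusted p of 0.105, 0.0837 and 0.0829. With genes above background on all arrays, limma again called 0 and 0 (2184 lower and 2443 higher unadjusted). Those 3 differences were 1.68, -2.82 and -3.44, with limma adjusted p of 0.0585, 0.0503 and 0.0503. With no filter on dim probes, Lama1 at 1.68 was not called (limma adjusted p = 0.0592), leaving 0 higher members and 10 higher genes. The block and these filters keep the probe values of the 3 genes. Their differences therefore could not move, and only the adjusted p could. Leaving out 1 line at a time, limma gave 0 to 683 lower and 0 to 64 higher genes, 0 to 5 lower and 0 higher members, and log2 differences of 1.57 to 1.80 for Lama1, -3.01 to -2.64 for Fbn1 and -3.64 to -3.23 for Mmp2. The 683 and 64 came without KO 1, and the other 3 omissions gave 0 (1718, 1771 and 2468 lower unadjusted). The lone line of a genotype was then assumed to vary like the other group.

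The number of higher genes was 58 under median centring, 67 under normexp and 80 with an intensity trend, against 38; lower members numbered 7 under normexp and 5 with an intensity trend, against 2. The basement membrane median of -0.07 was -0.22 under quantile scaling and with the deposited values, 0.10 under median centring and -0.18 with probes averaged. The interstitial median of -0.83 ranged from -1.30 to -0.20 with 1 line left out. The median of all genes was 0.10, and 0.26 under median centring.

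Signs turned for Lama5 (0.10), Fn1 (0.0659) and Timp2 (0.0505) under median centring, for Lama5 (0.0303), Lamc3 (-0.14), Col5a2 (-0.11), Col6a2 (-0.19) and Tnc (-0.14) under normexp, and for Col4a6 (-2.20) with probes averaged. With 1 line left out they turned within these ranges: -1.17 to 0.75 for Col1a2, -0.45 to 0.25 for Fn1, -0.81 to 0.58 for Timp2, -0.10 to 0.20 for Lamc3, -0.26 to 0.48 for Nid1, -0.65 to 0.91 for Col5a2, -0.28 to 0.34 for Col6a2, -0.37 to 0.73 for Dcn, -1.39 to 2.02 for Tnc, -0.032 to 0.76 for Timp1, -0.15 to 0.0137 for Lama5. The cause was not tested.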
